A study of Mus musculus with 4 samples.

Results

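The 55 genes described here encode the machinery that copies DNA and divides the cell, with the cyclins, kinases, inhibitors and E2F factors that time those steps. They were chosen as a list of names. The rule itself uses no measured value, but the list was drawn up with earlier results of these data known. All 55 were found among the 52550 genes of the expression table, each as 1 row under an Ensembl mouse gene identifier. By role, 24 act in DNA replication, 13 act in mitosis, and 18 are cyclins, cyclin-dependent kinases, inhibitors or E2F factors. As background, growth factors raise the D-type cyclins, which act with Cdk4 and Cdk6 on the Rb protein and so free E2F factors to switch on genes for S phase, the phase in which DNA is copied. The MCM complex is loaded at origins, becomes the replicative helicase with Cdc45 and the GINS complex, and is followed by polymerases held on DNA by the Pcna ring. Genes for mitosis are switched on later, many of them through a promoter element called the cell cycle genes homology region (CHR). Macrophages grown from bone marrow divide in response to M-CSF, and IL-4 is known to drive division of tissue macrophages in mice.

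The study sequenced messenger RNA from macrophages cultured from the marrow of mice that were wild type (WT) or OGT knockout by label, to compare the genotypes before and after polarisation with IL-4. OGT adds a single sugar, O-linked N-acetylglucosamine, to proteins of the nucleus and cytoplasm. Marrow cells of both genotypes were grown for 7 days in 20 ng/mL of M-CSF, so every group had been exposed to this growth factor. The 4 groups were WT at 0 h, WT at 24 h, knockout at 0 h and knockout at 24 h, and the polarisation protocol states 20 ng/mL of IL-4 for 24 h. The treatment tag names IL-4 for the 0 h groups too, and these were taken as cells before IL-4 because of their time. For the way the knockout was made, the strain, age and number of mice and any pooling, nothing is given in the sources used here. Each group holds 1 library, so no difference below has an error between replicates and none was tested. No group is labelled as kept for 24 h without IL-4, so IL-4 and time in culture cannot be told apart.

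Expression is given in FPKM, fragments scaled to transcript length and library size, a level per length that allows genes to be compared. The libraries' FPKM totals lay between 338704 and 353093. Ogt, the targeted gene, stood at 27.4 FPKM at 0 h and 29.8 at 24 h in WT, and 14.2 and 14.5 in the knockout, so it was lower in both knockout libraries and still detected there. All 12 macrophage markers were present in every library, among them Cd68 (965 to 1009 FPKM), the M-CSF receptor Csf1r (610 to 885 FPKM) and Adgre1 (361 to 1150 FPKM), though most stood lower after IL-4, as given with the IL-4 results.

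Differences between 2 libraries are given as log2 of the ratio of FPKM + 1, which understates the ratio of genes with few FPKM. A difference of at least 1 on this scale is called 2-fold. Where 4 FPKM values follow a gene, they stand for WT at 0 h and 24 h and then for the knockout at 0 h and 24 h, and a pair of IL-4 differences stands for WT and then the knockout. The members are set beside the 11144 genes with a mean of at least 1 FPKM over the 4 libraries. Of the 55 members, 53 reach that mean, and Tyms and Ccnd2 lie below it. From the smallest values of genes with a single exon, 1 FPKM was estimated to stand for 20.4 to 21.4 fragments per kilobase. By that estimate the members rest on 27 to 7366 fragments per library, and the counting error of a member's log2 ratio had a median SD of 0.120 for IL-4 in WT, 0.132 for IL-4 in the knockout, 0.142 for genotype at 0 h and 0.116 for genotype at 24 h. These SDs cover counting error only, not variation between cultures. They belong to the log2 ratio of FPKM without the pseudocount. On the log2(FPKM + 1) scale of the differences the counting error is smaller, most of all at low levels. Exons of 20 members overlap those of another gene, mostly on the opposite strand, and strandedness is not stated in what was used here. Reads of both may thus be mixed in Mcm7, Cdc45, Gins2, Rfc4, Fen1, Lig1, Tk1, Top2a, Plk1, Cdc20, Ccna2, Ccne2, Cdk2, Ccnd1, Ccnd2, Ccnd3, Cdk4, Cdk6, Cdkn1a and Rb1. The gene overlapping Top2a, on the same strand, was at 0 FPKM in all 4 libraries. Those overlapping Plk1, Cdk6 and Ccnd2 reached at most 0.126, 0.0462 and 0.0241 FPKM.

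**Figure D1:**
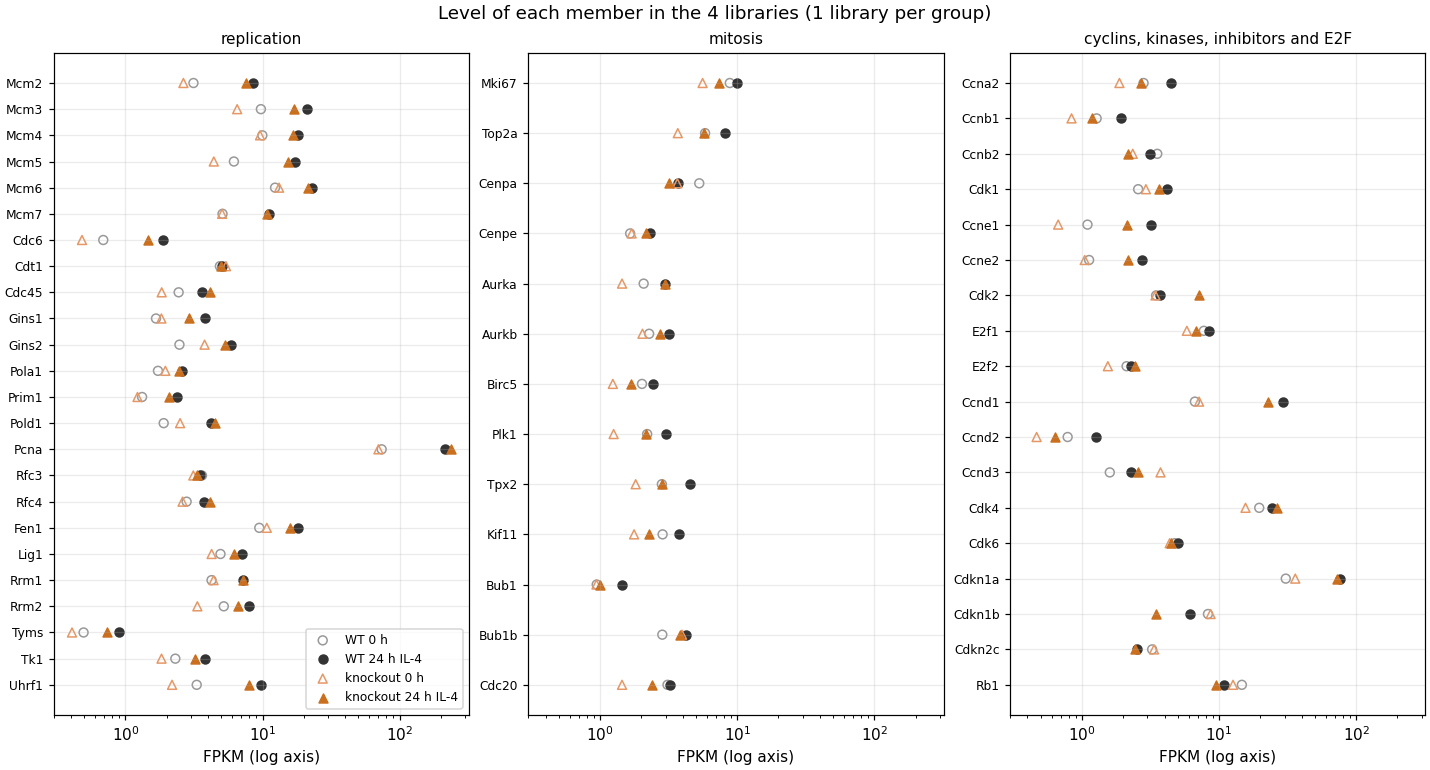
FPKM of each of the 55 members in the 4 libraries on a log axis, in panels by role; circles are WT, triangles the knockout, open symbols 0 h and filled symbols 24 h of IL-4. Pcna has the highest levels (70.1 to 238 FPKM), and most filled symbols lie to the right of the open ones in the replication panel.

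Promoter letters differed between the roles, and a few are shown here because the replication and mitosis genes also differ in the expression data below. RefSeq promoter windows (GRCm38.p6), 250 bases before to 50 bases after a start, matched 45 of the 55 members; Mcm4, Gins1, Gins2, Aurkb, Tpx2, Ccna2, Ccne2, Ccnd1, Ccnd2 and Rb1 were not matched. Both strands were searched for an E2F element (TTTCCCGC, TTTCGCGC, TTTGCCGC or TTTGGCGC) and for a CHR element (TTTGAA or TTCGAA). The E2F element was found in 11 of 21 replication members (52.38%), in 0 of 11 mitosis members and in 3 of 13 of the cyclins, kinases, inhibitors and E2F factors, against 2.60% of all 27025 genes with a window. The CHR element was found in 9 of 11 mitosis members (81.82%) and in 5 of 21 replication members (23.81%). It was in 3 of 13 of the cyclins and regulators and in 21.66% of all genes with a window. The share in replication members is thus near that of all genes with a window for CHR, and the share in mitosis members is not. Of genes with a window that are no members and reach the mean of 1 FPKM, 368 had the E2F letters and 7543 did not. For the CHR letters these counts were 1295 and 6616. A match is a description of letters and shows no binding. The bases before the start are printed 5′ to 3′ on the gene's strand, with E2F and CHR letters in capitals, first for replication genes with the E2F element, then for Cdk1, which has both, and then for mitosis genes with the CHR element.
Mcm5: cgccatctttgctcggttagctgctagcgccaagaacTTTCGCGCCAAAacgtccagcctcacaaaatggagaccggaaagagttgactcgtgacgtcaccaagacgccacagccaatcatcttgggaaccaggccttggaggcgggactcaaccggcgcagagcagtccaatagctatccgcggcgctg
Mcm6: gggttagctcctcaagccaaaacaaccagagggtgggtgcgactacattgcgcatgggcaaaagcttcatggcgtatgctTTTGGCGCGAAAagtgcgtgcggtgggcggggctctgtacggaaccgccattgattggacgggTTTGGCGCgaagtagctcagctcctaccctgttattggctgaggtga
Uhrf1: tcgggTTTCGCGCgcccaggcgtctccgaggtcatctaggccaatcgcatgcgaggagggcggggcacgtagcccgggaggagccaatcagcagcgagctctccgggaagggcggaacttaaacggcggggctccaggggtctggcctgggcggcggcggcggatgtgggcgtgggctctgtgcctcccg
Cdk1: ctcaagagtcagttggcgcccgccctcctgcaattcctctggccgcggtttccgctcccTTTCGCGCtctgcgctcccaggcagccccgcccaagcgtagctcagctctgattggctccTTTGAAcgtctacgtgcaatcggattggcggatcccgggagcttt
Mki67: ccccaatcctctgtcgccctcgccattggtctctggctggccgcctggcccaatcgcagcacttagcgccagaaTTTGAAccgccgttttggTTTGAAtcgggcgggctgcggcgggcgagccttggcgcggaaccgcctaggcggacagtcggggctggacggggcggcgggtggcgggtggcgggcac
Top2a: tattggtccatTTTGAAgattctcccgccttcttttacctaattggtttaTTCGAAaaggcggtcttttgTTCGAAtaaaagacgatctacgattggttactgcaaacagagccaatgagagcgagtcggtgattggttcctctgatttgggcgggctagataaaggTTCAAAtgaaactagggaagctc
Cdc20: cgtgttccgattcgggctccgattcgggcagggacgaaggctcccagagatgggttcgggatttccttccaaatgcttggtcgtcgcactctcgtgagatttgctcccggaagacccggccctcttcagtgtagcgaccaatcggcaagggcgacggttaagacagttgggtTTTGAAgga

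These lie in GRCm38.p6 at chr8:75109319-75109508 (Mcm5, plus strand), chr1:128359706-128359895 (Mcm6, minus), chr17:56304123-56304312 (Uhrf1, plus), chr10:69352939-69353102 (Cdk1, minus), chr7:135716380-135716569 (Mki67, minus), chr11:99024190-99024379 (Top2a, minus) and chr4:118437353-118437533 (Cdc20, minus). None of these bases is in an annotated exon. The Uhrf1 stretch precedes the second of its 2 RefSeq starts and so lies inside the annotated gene. For Cdk1 and Cdc20, 26 and 9 bases next to the start are left out because the GENCODE annotation places them in an exon. In Mcm5 and in the first capitals of Mcm6, E2F words on opposite strands overlap by 4 bases, which gives a run of 12 capitals. The last capitals of Top2a are a CHR element read on the other strand. Of the mitosis members with a window, Mki67, Top2a, Cenpa, Aurka, Plk1, Kif11, Bub1, Bub1b and Cdc20 had the CHR letters and Cenpe and Birc5 did not. The replication members with the E2F letters were Mcm3, Mcm5, Mcm6, Mcm7, Cdc6, Cdt1, Pola1, Pold1, Rfc3, Lig1 and Uhrf1, and the other members with them were Cdk1, Cdk2 and E2f2. Both elements were in 2 replication members, in 0 mitosis members and in 2 of the cyclins and regulators. The CCAAT box (CCAAT, either strand) was in 10 of 11 mitosis members, 13 of 21 replication members and 8 of 13 of the others. It was in 41.06% of all genes with a window.

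**Figure D2:**
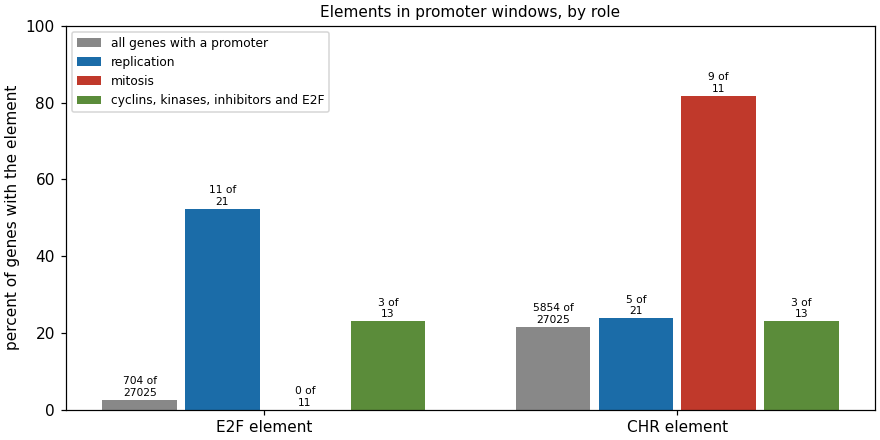
Percent of genes whose promoter window holds an E2F or a CHR element, for all genes with a window and for the members of each role, with the counts above the bars. The E2F bar is tallest for replication members (52.38%) and the CHR bar for mitosis members (81.82%).

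After 24 h of IL-4, replication genes stood higher in both genotypes. On the log2(FPKM + 1) scale they were led by the Pcna ring, the helicase subunits Mcm5, Mcm2 and Mcm3, and Uhrf1. The D-type cyclin gene Ccnd1 was higher by more than any other member in WT. Mitosis genes lay closer to 0, and the brakes of the cycle were split, with Cdkn1a higher and Cdkn1b, Cdkn2c and Rb1 lower. Over all 55 members the IL-4 difference was above 0 for 49 in WT, beside 52.3% of all genes. In the knockout it was above 0 for 47, beside 52.9%. Rescaling the libraries by the median ratio gave 48 and 46, beside 47.6% and 48.0% of all genes. Without rescaling, the IL-4 difference was 2-fold higher for 7 members in WT, beside 4.66% of all genes, and for 6 in the knockout, beside 4.99%. No member was 2-fold lower in WT, where 6.18% of all genes were, and 1 was in the knockout, where 5.67% were. The median over the members was 0.42 in WT and 0.46 in the knockout, and over all genes 0.02 and 0.03. Both genotypes were above 0 for 46 of the 55 members (83.64%), against 44.36% of all genes, and these 2 comparisons share no library. Markers of cell types were lower over the same hours. Of the 12 macrophage markers, 11 were below 0 with IL-4 in each genotype (medians −1.05 and −1.28, with 6 and 7 of them 2-fold lower). Their summed FPKM was 20525 at 0 h and 7868 at 24 h in WT, and 17782 and 8191 in the knockout. Lyz2 alone gave 15193 and 4246 of the WT sums, and 12062 and 4148 of the knockout sums. Of 11 neutrophil markers, 9 were below 0 in WT and 8 in the knockout (medians −1.51 and −1.52), and of 9 myeloid progenitor markers 8 were below 0 in each (−0.52 and −0.39). The part of these markers in the IL-4 differences of the members was not tested. In bulk RNA, fewer cells of a type or in a phase and less RNA per cell cannot be told apart.

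**Figure D3:**
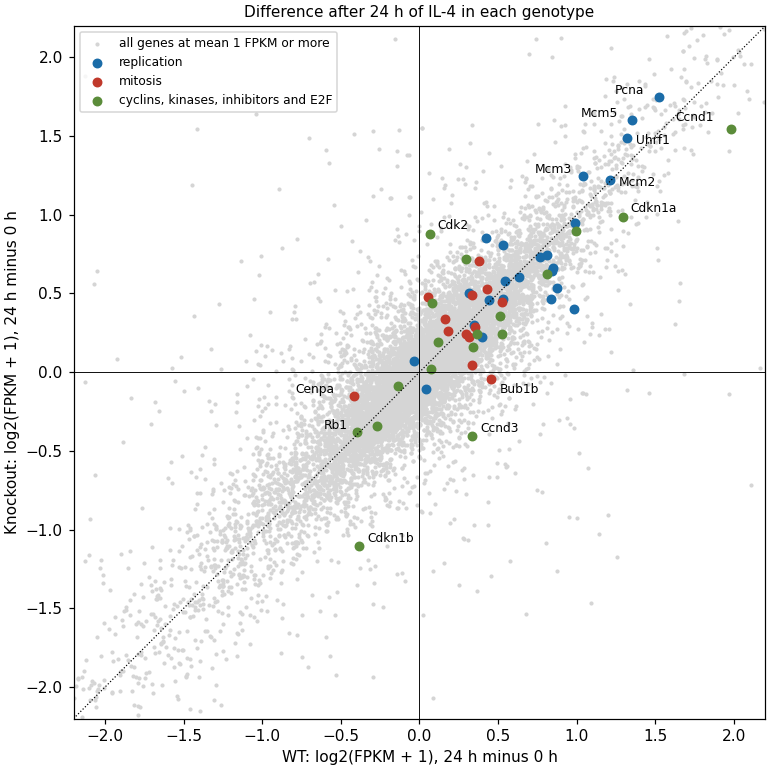
IL-4 difference of each member in WT (horizontal) against the knockout (vertical), in log2 of FPKM + 1, over all genes with a mean of at least 1 FPKM in grey; the dotted line marks equal values. Replication members (blue) reach from −0.03 to 1.52 in WT, mitosis members (red) from −0.42 to 0.53, and Cdkn1b and Ccnd3 lie below 0 in the knockout.

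Among the replication genes, 23 of 24 were above 0 in WT and 23 of 24 in the knockout, with medians of 0.79 and 0.62; with the median-ratio rescaling the WT count was 22. The 11 genes of origin licensing and the helicase had medians of 0.85 and 0.74. Mcm5, a helicase subunit (chr8:75109569-75128439), stood at 6.18 FPKM at 0 h and 17.3 at 24 h in WT, and 4.41 and 15.4 in the knockout, log2 differences of 1.35 and 1.60 with IL-4. Mcm2 (chr6:88883474-88898780) had 3.13, 8.55, 2.65 and 7.51 FPKM in the same order, differences of 1.21 and 1.22. Mcm3 (chr1:20802968-20820312) had 9.73, 21.1, 6.53 and 16.9 FPKM, differences of 1.04 and 1.25. For these 3 subunits both 24 h libraries lay above both 0 h libraries, and WT lay above the knockout at each time. Mcm4 had 9.97, 18.2, 9.59 and 16.7 FPKM, with IL-4 differences of 0.81 and 0.74. Mcm6 had 12.3, 23.1, 13.2 and 21.5 FPKM, differences of 0.85 and 0.66. Mcm7, the remaining subunit of the ring, had differences of 0.99 and 0.95, so all 6 subunits stood higher after IL-4 in both genotypes. The FPKM of Mcm7 before the pseudocount was 2.18 and 2.11 times higher. Since the 6 proteins form 1 ring, they are not independent observations.

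The loading factors were uneven. Cdc6, which helps to load the ring, differed by 0.77 in WT and 0.73 in the knockout from under 1 FPKM at 0 h. Before the pseudocount its FPKM was 2.73 and 3.03 times higher, past 2-fold. Cdt1, its partner, stood at 4.89 to 5.41 FPKM in the 4 libraries and differed by 0.04 and −0.10. The helicase activators Cdc45, Gins1 and Gins2 differed by 0.42, 0.84 and 0.98 in WT and by 0.85, 0.46 and 0.40 in the knockout. Cdc45 thus had its larger value in the knockout, and the GINS genes theirs in WT. Their FPKM before the pseudocount was also past 2-fold there, 2.24 times higher for Cdc45, 2.26 for Gins1 and 2.37 for Gins2.

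Pcna, the sliding clamp (chr2:132249162-132253314), had the highest level of all members, with 74.0 FPKM at 0 h and 214 at 24 h in WT, and 70.1 and 238 in the knockout. Its differences were 1.52 and 1.75, and its FPKM was 2.90 times higher in WT and 3.39 times higher in the knockout, with a counting SD of 0.034 and 0.035 on the log2 ratio. A near-identical copy, Pcna-ps2, was listed at 21.8, 66.0, 22.3 and 67.4 FPKM in the same order, so reads may be divided between the 2 genes and the level of Pcna is less certain than its counting error. Fen1, the nuclease that trims Okazaki fragments, had 9.47, 18.2, 10.7 and 16.0 FPKM, IL-4 differences of 0.88 and 0.53. The other 6 genes of the polymerases, clamp loader and ligase (Pola1, Prim1, Pold1, Rfc3, Rfc4 and Lig1) stood between 1.22 and 7.06 FPKM. Their differences ran from −0.03 for the clamp loader gene Rfc3 to 0.84 for the polymerase delta gene Pold1 in WT. In the knockout they ran from 0.07 for Rfc3 to 0.64 for Pold1. The FPKM of Pold1 before the pseudocount was 2.21 times higher in WT.

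The 4 nucleotide supply genes had medians of 0.54 in WT and 0.59 in the knockout. The 8 genes of the polymerases, clamp, clamp loader and strand joining had 0.49 and 0.48. Rrm1, the large subunit of ribonucleotide reductase, had 4.25 FPKM at 0 h and 7.15 at 24 h in WT, and 4.39 and 7.20 in the knockout, with differences of 0.63 and 0.60. Rrm2, its small subunit, had 5.22, 7.99, 3.35 and 6.60 FPKM, differences of 0.53 and 0.81. Tk1 and Tyms, which make thymidine nucleotides, differed by 0.55 and 0.34 in WT and by 0.58 and 0.30 in the knockout, with Tyms under 1 FPKM in every library. Uhrf1 (chr17:56303321-56323486), which guides maintenance methylation to newly copied DNA, had 3.31, 9.77, 2.19 and 7.93 FPKM and differences of 1.32 and 1.49. In each of these genes both 24 h libraries lay above both 0 h libraries.

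Replication members with the E2F letters, such as those printed for Mcm5, Mcm6 and Uhrf1, had a median IL-4 difference of 0.84 in WT (11 genes) and 0.66 in the knockout. The 10 replication members with a window but without the letters had 0.54 and 0.59, and they include Pcna and Mcm2. Those with the letters include Cdt1 (0.04 and −0.10) and Rfc3 (−0.03 and 0.07), the lowest replication members in each genotype. Among genes that are no members and reach the mean of 1 FPKM, the 368 with the letters had a median of 0.08 in WT and 4.35% were 2-fold higher, beside 0.01 and 4.39% for the 7543 without them.

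Of the 18 cyclins, kinases, inhibitors and E2F factors, 14 were above 0 in WT and 13 in the knockout, with medians of 0.31 and 0.24. Ccnd1 (chr7:144929931-144939925), the cyclin that links growth factor signals to Cdk4 and Cdk6, had 6.66 FPKM at 0 h and 29.2 at 24 h in WT, and 7.14 and 22.7 in the knockout. Its differences were 1.98 and 1.54, and its FPKM was 4.39 and 3.18 times higher. The 2 libraries at 24 h lay above the 2 at 0 h, and LTO1, whose exons overlap those of Ccnd1, stayed between 1.39 and 1.97 FPKM. Cdk4, the main kinase partner of Ccnd1, had 19.6, 24.3, 15.6 and 26.3 FPKM, differences of 0.29 and 0.72. Cdk6 differed by 0.08 and 0.02, and Ccnd2, a further D-type cyclin of at most 1.26 FPKM, by 0.34 and 0.16.

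The cyclins of the step into S phase, Ccne1 and Ccne2, stood higher from low levels. Ccne1 differed by 0.99 in WT and 0.90 in the knockout and Ccne2 by 0.81 and 0.62, and the highest level of either was 3.18 FPKM. Before the pseudocount, the FPKM of Ccne1 was 2.90 and 3.16 times higher and that of Ccne2 2.43 and 2.05 times. E2f1, which drives S-phase genes, had 7.74 FPKM at 0 h and 8.49 at 24 h in WT, and 5.82 and 6.78 in the knockout, differences of 0.12 and 0.19. E2f2, a related activator, differed by 0.08 and 0.44. The difference of both activators was thus below the replication median in each genotype. Ccna2, the cyclin of S phase and early mitosis, had 2.81, 4.43, 1.87 and 2.68 FPKM, IL-4 differences of 0.51 and 0.35. Cdk1, the kinase that starts mitosis, had 2.57, 4.14, 2.92 and 3.64 FPKM, differences of 0.53 and 0.24. The mitotic cyclins Ccnb1 and Ccnb2 differed by 0.36 and −0.13 in WT and by 0.24 and −0.09 in the knockout.

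The brakes differed in direction. Cdkn1a (chr17:29090976-29100727), the p21 inhibitor of cyclin-dependent kinases, had 30.7 FPKM at 0 h and 76.6 at 24 h in WT, and 35.9 and 72.1 in the knockout. Its differences were 1.29 and 0.99, on either side of the 2-fold limit, and its FPKM was 2.50 and 2.01 times higher. Cdkn1b (chr6:134920401-134925513), the p27 inhibitor, had 8.29, 6.13, 8.67 and 3.49 FPKM, differences of −0.38 in WT and −1.11 in the knockout. The knockout at 24 h was the lowest of its 4 libraries and the 2 libraries at 0 h the highest. Rb1, the repressor of E2F, had 14.7, 10.9, 12.6 and 9.47 FPKM, differences of −0.39 and −0.38. Exons of Rb1 overlap those of Rcbtb2 and Lpar6, and Lpar6 went from 22.4 to 3.94 FPKM in WT and from 17.9 to 4.67 in the knockout, so reads of these genes may be mixed in the value of Rb1. Cdkn2c, an inhibitor of Cdk4 and Cdk6, stood at 2.44 to 3.35 FPKM and differed by −0.27 and −0.34.

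Mitosis genes stood closer to 0 with IL-4 than replication genes. Of 13, 12 were above 0 in WT and 11 in the knockout, with medians of 0.33 and 0.29, and none was 2-fold apart on the log2(FPKM + 1) scale. The FPKM of Aurka before the pseudocount was 2.06 times higher in the knockout, past 2-fold. Mki67, the proliferation marker Ki-67 that coats mitotic chromosomes, had 8.83 FPKM at 0 h and 10.0 at 24 h in WT, and 5.59 and 7.34 in the knockout, IL-4 differences of 0.16 and 0.34. Top2a, which untangles sister chromosomes, had 5.83, 8.20, 3.69 and 5.76 FPKM, differences of 0.43 and 0.53. In both genes the WT library lay above the knockout library of the same time. The spindle kinase Aurka had 2.08, 2.99, 1.45 and 2.98 FPKM, and Aurkb, of the chromosomal passenger complex, 2.28, 3.18, 2.04 and 2.71. Tpx2, which activates Aurka on the spindle, had 2.82, 4.50, 1.82 and 2.84 FPKM, and the checkpoint gene Bub1b 2.84, 4.26, 3.96 and 3.81. Of these 4 genes, the first 3 were lowest in the knockout at 0 h, and Bub1b was lowest in WT at 0 h. Cenpa, the histone of centromeres, was the one mitosis gene lower in both genotypes (−0.42 and −0.15). The other 6 (Cenpe, Birc5, Plk1, Kif11, Bub1 and Cdc20) differed by 0.05 to 0.33 in WT and by 0.05 to 0.49 in the knockout. Summed FPKM of the mitosis members was 42.8 in WT at 0 h and 53.1 at 24 h, and 30.5 and 40.3 in the knockout. For the replication members the sums were 174 and 405, and 163 and 410, of which Pcna gave a large share.

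**Figure D4:**
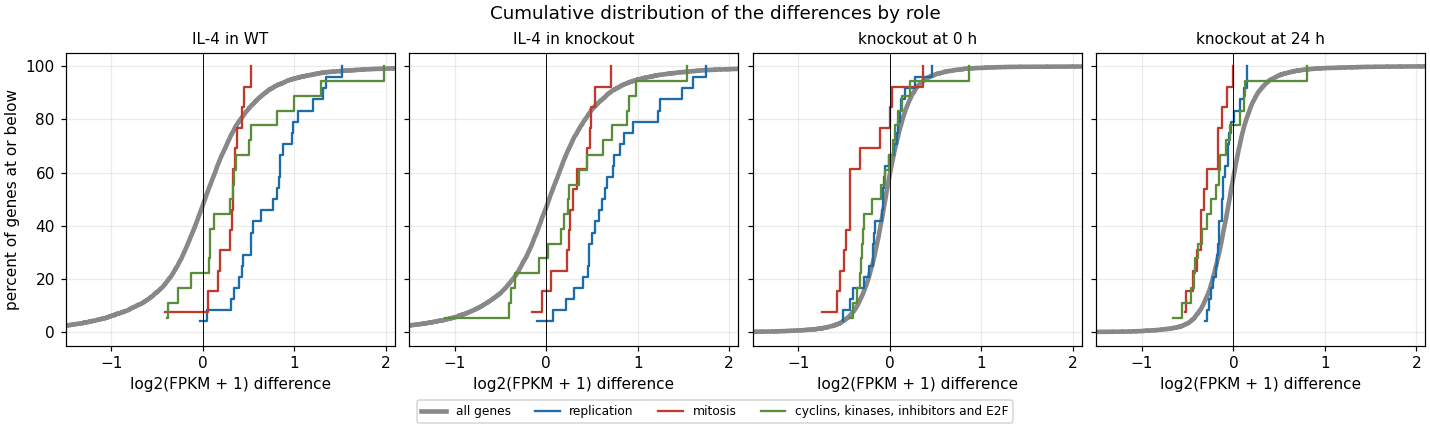
Cumulative percent of genes at or below each log2 difference of FPKM + 1, for all genes with a mean of at least 1 FPKM (grey) and for each role, in the 4 comparisons of 2 libraries. Replication members lie to the right of all genes with IL-4 (medians 0.79 and 0.62), and mitosis members lie to the left between genotypes (medians −0.43 and −0.33).

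The rest of the pathway was read from lists of genes that are no members. Beside them, 52.3% of all genes were above 0 with IL-4 in WT and 52.9% in the knockout. The shares 2-fold higher were 4.66% and 4.99%, and those 2-fold lower 6.18% and 5.67%. Of 45 other replication genes, 38 were above 0 with IL-4 in WT (median 0.46) and 34 in the knockout (0.31); 1 was 2-fold higher in WT, Chaf1a of the histone chaperone CAF-1 (1.00), named after its value was seen, and none in the knockout. Named by the rule for these lists were Rfc5 of the clamp loader (0.94 in WT, 0.89 in the knockout), Pold4 of polymerase delta (0.93 and 0.81) and the licensing inhibitor Gmnn (0.72 and 0.68). Of 50 other mitosis genes, 43 were above 0 in WT (0.26) and 39 in the knockout (0.19). Named by the rule were the securin gene Pttg1 (−0.71 and −0.79) and the condensin genes Smc2 (0.45 and 0.19) and Smc4 (0.37 and 0.07); the condensin gene Ncapg2 was the only one 2-fold apart (−1.11 and −1.18) and was named after its value was seen. Of 43 other regulators, 32 were above 0 in WT (0.19) and 29 in the knockout (0.12). Myc, a growth factor-induced transcription factor, had 1.98 FPKM at 0 h and 21.8 at 24 h in WT, and 1.55 and 16.6 in the knockout, differences of 2.94 and 2.78. Cks1b, a partner of cyclin-dependent kinases in the removal of p27, differed by 1.04 and 1.53, and Cdkn1c, the p57 inhibitor, by −1.77 and −1.34. Pkmyt1 (1.08) and E2f3 (−1.07) were also 2-fold apart in the knockout, and both were named after their values were seen.

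Between the genotypes, mitosis genes stood lower in the knockout at both times, by counts that drop by 1 gene at each time with the median-ratio rescaling. The medians of the replication genes lay closer to 0. No member reached 2-fold on the log2(FPKM + 1) scale. At 0 h, 16 of the 55 members were above 0, beside 40.4% of all genes, and 0 were 2-fold higher or lower, beside 0.637% and 0.736%. At 24 h, 9 of 55 were above 0, beside 41.4% of all genes, and 0 were 2-fold higher or lower, beside 0.727% and 0.485%. With the median-ratio rescaling, which raises both knockout libraries relative to WT, 20 and 13 members were above 0. The shares of all genes above 0 were then 49.9% and 50.7%. Without rescaling, the medians were −0.16 at 0 h and −0.17 at 24 h over the members, and −0.05 and −0.04 over all genes. Of the 24 replication genes, 8 were above 0 at 0 h and 5 at 24 h, with medians of −0.07 and −0.12; with the median-ratio rescaling these counts were 10 and 7, and the medians −0.03 and −0.08.

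**Figure D5:**
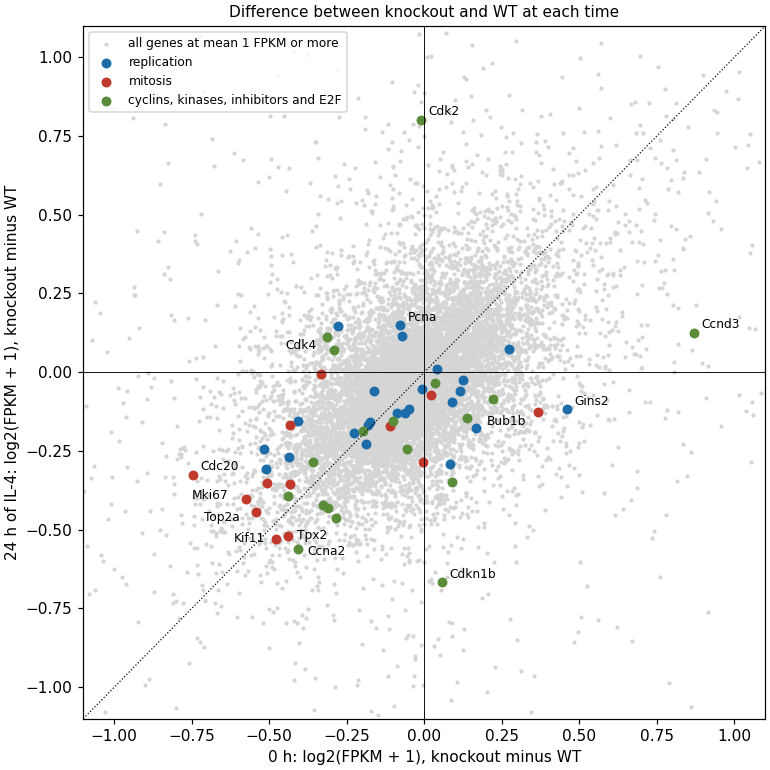
Knockout minus WT for each member at 0 h (horizontal) and after 24 h of IL-4 (vertical), in log2 of FPKM + 1, over all genes with a mean of at least 1 FPKM in grey; the dotted line marks equal values. Most mitosis members (red) lie in the lower left, while Cdk2, Ccnd3 and Cdkn1b lie far from 0 at 1 time only; with the median-ratio rescaling 1 mitosis member moves above 0 at each time.

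Of the 13 mitosis genes, 11 were below 0 at 0 h (median −0.43) and 13 at 24 h (−0.33). With the median-ratio rescaling these counts were 10 and 12, with medians of −0.40 and −0.28. That rescaling put 49.9% of all genes above 0 at 0 h and 50.7% at 24 h. Without rescaling, both times were below 0 for 11 of the 13 (84.62%), against 43.31% of all genes and 13 of 24 replication genes (54.17%). These 2 comparisons share no library, but the number of mice and any pooling are not given. The 2 times may thus share a difference between cultures, and genotype and culture cannot be told apart for these genes. Mki67 differed by −0.58 at 0 h and −0.40 at 24 h, its FPKM in the knockout being 0.633 and 0.732 of that in WT, with a counting SD of 0.054 and 0.048 on the log2 ratio. Top2a differed by −0.54 and −0.45 and Tpx2 by −0.44 and −0.52. The spindle motor Kif11 differed by −0.48 and −0.53, and the mitotic kinase Plk1 by −0.51 and −0.35. Birc5, of the chromosomal passenger complex, differed by −0.43 and −0.35. Cdc20, which activates the anaphase-promoting complex, had 3.10 FPKM in WT against 1.45 in the knockout before IL-4, the largest difference of the mitosis genes at that time (−0.75), and differed by −0.33 at 24 h. Its FPKM in the knockout at 0 h was 0.466 of that in WT, past 2-fold before the pseudocount, with a counting SD of 0.238 on the log2 ratio. Cenpa differed by −0.43 and −0.17 and Aurka by −0.33 and −0.0048, so the difference of these 2 genes was mainly at 0 h. Aurkb differed by −0.11 and −0.17. The kinetochore motor Cenpe differed by 0.02 and −0.07 and the checkpoint kinase Bub1 by −0.0031 and −0.29, while Bub1b was higher in the knockout at 0 h (0.37) and differed by −0.13 at 24 h. The mitosis members with the CHR letters had a median of −0.48 at 0 h and −0.33 at 24 h (9 genes), beside −0.20 and −0.21 for the 2 without them and −0.16 and −0.06 for the 5 replication members with them. Among genes that are no members and reach the mean of 1 FPKM, the 1295 with the CHR letters had medians of −0.06 and −0.06, and the 6616 without them −0.04 and −0.04.

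Cyclins of the same phases stood lower too. Ccna2 differed by −0.41 at 0 h and −0.56 at 24 h, Ccnb1 by −0.31 and −0.43 and Ccnb2 by −0.44 and −0.39, while their kinase Cdk1 differed by 0.14 and −0.15. Ccne1 differed by −0.33 and −0.42, Ccne2 by −0.06 and −0.24 and E2f1 by −0.36 and −0.29. Ccnd2 differed by −0.28 and −0.46 from low levels and Cdk6 by −0.10 and −0.16. Among replication genes the lowest at 0 h were Rrm2 (−0.52, and −0.24 at 24 h), Mcm3 (−0.51, and −0.31), Uhrf1 (−0.44, and −0.27) and Mcm5 (−0.41, and −0.15). At 24 h the lowest were Mcm3 and Gins1 (−0.29, and 0.08 at 0 h). The highest were Gins2 at 0 h (0.46) and Pcna at 24 h (0.15). The other 17 replication genes lay between −0.28 and 0.27 at 0 h and between −0.23 and 0.15 at 24 h. Of the remaining regulators, Ccnd1 differed by 0.09 and −0.35, Cdk4 by −0.31 and 0.11 and E2f2 by −0.29 and 0.07. The brakes Cdkn1a, Rb1 and Cdkn2c differed by 0.22, −0.20 and 0.03 at 0 h and by −0.09, −0.19 and −0.03 at 24 h. Of all 11144 genes, 6637 were below 0 at 0 h (median −0.05) and 6523 at 24 h (−0.04). Between genotypes 0.736% of all genes were 2-fold lower at 0 h and 0.485% at 24 h, and 0.637% and 0.727% 2-fold higher. Outside the members, 39 of 50 other mitosis genes were below 0 at 0 h (median −0.16) and 46 at 24 h (−0.17), none of them 2-fold. Named by the rule were the checkpoint gene Bub3 (−0.46 at 0 h and −0.49 at 24 h), Smc2 (−0.03 and −0.29) and Smc4 (0.13 and −0.17). Of 45 other replication genes, 24 were below 0 at 0 h (−0.02), a smaller share than of all genes, and 32 at 24 h (−0.10). Those named were Pole4 of polymerase epsilon (−0.53 and −0.41), Pold4 (−0.27 and −0.39) and Rfc5 (−0.18 and −0.24). Of 43 other regulators, 29 were below 0 at each time (−0.08 and −0.08). Only E2f3 among them was 2-fold apart, lower at 24 h (−0.05 at 0 h and −1.43 at 24 h), and it was named after its value was seen. Those named by the rule were Cks2 (−0.41 and −0.51), Tfdp1, the E2F partner (−0.48 and −0.47), and Hcfc1, a known OGT substrate (0.54 and 0.50).

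Summed FPKM of markers of several other marrow cells was lower in the knockout as well. For comparison, 6637 of all 11144 genes were below 0 at 0 h and 6523 at 24 h. The summed FPKM of 11 neutrophil markers at 0 h was 3318 for WT against 2145 for the knockout, and at 24 h 1062 against 708, with 10 and 7 of 11 below 0. Much of these sums came from S100a9 (1769 and 1084 at 0 h, 623 and 377 at 24 h) and S100a8 (721 and 408, 206 and 134). The count of 7 of 11 at 24 h is near the share of all genes. For 9 myeloid progenitor markers, a dividing cell type, the sums were 89.3 and 61.3 at 0 h and 47.8 and 39.4 at 24 h, with 9 and 8 of 9 below 0. For 7 megakaryocyte markers they were 102 and 48.5, and 49.6 and 29.3, with 6 of 7 below 0 at each time. Pf4 gave 82.6 and 41.5 of these at 0 h, and 40.5 and 25.4 at 24 h. For 5 monocyte markers the sums were 56.2 and 43.8, and 26.7 and 18.5, with 4 of 5 below 0 at each time. None of these 4 lists has a marker at 0 in all libraries. The sums of the other lists were small in every library, given here as WT and knockout at 0 h, then at 24 h, for 8 fibroblast markers (13.7 and 8.20, 6.80 and 5.15), 10 lymphocyte markers (16.3 and 10.6, 5.81 and 3.62), 8 mast cell and basophil markers (6.54 and 1.20, 4.43 and 0.712, with Mcpt4 and Cma1 at 0 throughout), 7 dendritic cell markers (3.15 and 2.75, 1.55 and 1.80) and 8 erythroid markers (0.855 and 0.0958, 1.18 and 0.949, with Hbb-bt at 0 throughout). Of the 12 macrophage markers, 7 were above 0 at each time (medians 0.05 and 0.03), beside 40.4% and 41.4% of all genes. Only Itgam among them was 2-fold lower, at 24 h (−1.07), where 0.485% of all genes were. The part of all these markers in the difference of the mitosis genes was not tested.

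The IL-4 difference in the knockout minus that in WT had a median of −0.04 over the members and 0.00 over all genes. It was above 0 for 24 of 55 members, beside 50.6% of all genes, and 0 members were past 2-fold in either direction, beside 1.12% higher and 0.835% lower. For the 24 replication genes the median was −0.03, with 11 above 0. For the 13 mitosis genes it was 0.08, with 7 above 0. For the 18 cyclins, kinases, inhibitors and E2F factors it was −0.11, with 6 above 0. The furthest members were Cdk2, Ccnd3 and Cdkn1b. Cdk2, the kinase of Ccne1 and Ccna2, had 3.47 FPKM at 0 h and 3.69 at 24 h in WT, and 3.44 and 7.16 in the knockout, a difference of responses of 0.81. Only the knockout at 24 h was high, and Pmel, whose exons overlap those of Cdk2, was at or below 0.392 FPKM in every library. Ccnd3, a D-type cyclin, had 1.59, 2.27, 3.74 and 2.57 FPKM, a difference of responses of −0.74, with only the knockout at 0 h high. Its FPKM there was 2.34 times that in WT, past 2-fold before the pseudocount, and Bysl, whose exons overlap those of Ccnd3, was at its lowest in that library (1.69 FPKM). For Cdkn1b, lower at 24 h in both genotypes and lowest in the knockout, the value was −0.72, and for E2f3, an activator named after its value was seen, it was −1.38, with 3.87, 5.03, 3.69 and 1.24 FPKM. With 1 library per group, the genotype and the single culture cannot be told apart for these genes.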

How the data were processed

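Macrophages of 4 groups were measured with 1 library each. The authors deposited FPKM per Ensembl gene; its header gives no unit, and FPKM is inferred from the column totals and from StringTie being named. STAR, StringTie and GRCm38 (mm10) come from the submitters' processing notes, while versions, annotation and strandedness were not stated there. Symbols were matched for 52403 of 52550 genes, genes sharing a symbol were summed (52476 names), and positions were taken from GENCODE M21. With a pseudocount of 1 FPKM, log2(FPKM + 1) differences were computed for 5 comparisons (IL-4 in each genotype, knockout against WT at each time, and the difference of the IL-4 responses) in Python 3.11.15 with pandas 2.3.3, NumPy 2.4.6 and matplotlib 3.10.9. A log2 difference of 1 was called 2-fold. All genes means those with a mean of at least 1 FPKM (11144).

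Depth was not given: fragments were estimated from 4780 single-exon genes of at least 1000 bases, whose commonest small product of FPKM and kilobases was taken as 1 fragment. Those estimates set the counting SDs, which use the longest transcript and cover counting error only. The steps were tested on simulated data with counting error only. Known folds were set there only in genes of at least 5 FPKM in WT at 0 h. The recovery of folds in genes with fewer FPKM was thus not tested.

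The members, the 4 pathway lists and the 10 marker lists were chosen with earlier results of these data known. Ccng1 and Flt3 are each on 2 lists. FPKM in all 4 libraries is printed for members past 2-fold in any comparison of 2 libraries and for the 2 members of each functional subgroup with the highest mean, and otherwise where stated for a result. Of each pathway list, up to 3 genes with a mean of at least 5 FPKM and the largest differences with IL-4 in WT and with genotype at 24 h are named. Pseudocounts of 0.1 and 5 FPKM, median-ratio and TPM rescaling, and members at 5 FPKM or more were tried. Leaving out members with overlapping exons was added after seeing the data.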

Additional observations from a re-analysis of the deposited data

Results flagged for a closer look

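For 7 members the same comparison went in opposite directions, by at least 0.1 on the log2(FPKM + 1) scale each, in the 2 genotypes or at the 2 times; each difference rests on 1 library per group and was not tested. For Ccnd3 the IL-4 difference was 0.34 in WT and −0.41 in the knockout, a difference of −0.74. The other 6 differ in the sign of knockout minus WT between 0 h and 24 h. For Gins2 it was 0.46 at 0 h and −0.12 at 24 h (difference −0.58), for Bub1b 0.37 and −0.13 (−0.49), for Fen1 0.17 and −0.18 (−0.34) and for Cdk1 0.14 and −0.15 (−0.28). In the other direction, it was −0.31 and 0.11 for Cdk4 (0.43) and −0.28 and 0.15 for Cdc45 (0.42). Ccnd3, Gins2, Fen1, Cdk4 and Cdc45 are among the members whose exons overlap another gene.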

How the results depend on the processing

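Of 20 results recomputed under 6 alternatives, 94 of 120 values stayed within the limits set (0.1 for medians, 1.5 times for counts), and 26 did not. The sign changed for 1, the median difference of responses, from −0.04 to 0.01 over the members at 5 FPKM or more; by role it changed for replication genes with 0.1 FPKM (0.0017) and at 5 FPKM or more (0.01), and for mitosis genes from 0.08 to −0.06 without overlapping exons. The median IL-4 difference of the members in WT (0.42) was 0.57 with a pseudocount of 0.1 FPKM, 0.22 with 5 FPKM and 0.81 over the 21 members at 5 FPKM or more; in the knockout (0.46) it was 0.64, 0.21 and 0.72, and 0.34 over the 35 members without overlapping exons. Members 2-fold higher with IL-4 in WT (7) numbered 14 with 0.1 FPKM, 3 with 5 FPKM and 12 with TPM. The shares of all genes were 6.51%, 2.27% and 5.29%, and 4.66% before. Those in the knockout (6) numbered 12 with 0.1 FPKM and 3 with 5 FPKM, beside 7.39% and 2.44% of all genes, and 4.99% before. The 1 member 2-fold lower in the knockout became 0 with 5 FPKM, beside 2.87% of all genes. Between genotypes at 0 h, 1 member was 2-fold higher with 0.1 FPKM and 1 with TPM, beside 1.18% and 0.960% of all genes. With 0.1 FPKM, 1 member was 2-fold lower at 0 h, beside 1.56% of all genes, where none was before. For the difference of responses, 1 was 2-fold lower with 0.1 FPKM, beside 1.61% of all genes. Counts above 0 over the 21 members at 5 FPKM or more were 19 and 18 with IL-4 in WT and in the knockout, 7 and 3 for genotype at 0 h and at 24 h, and 12 for the difference of responses; over the 35 members without overlaps they were 30, 29 and 4 for IL-4 in WT, IL-4 in the knockout and genotype at 24 h, and 14 for the difference of responses. These last counts are lower by construction, since fewer members enter. TPM values are about 3 times the FPKM, so the same pseudocount weighs less. Median-ratio factors of 0.959 to 1.04 left every result within the limits. No paired analysis was possible because each group holds 1 library, and for the same reason no replicate could be left out. Depth limits members with few fragments, such as Ccne1 with an estimated 27 in its lowest library. Its counting SD was up to 0.347 on the log2 ratio without the pseudocount.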

Other observations

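Cdkn1a is also known as a target of p53, and other p53 targets were described from a list. Of 22 such genes, 8 were above 0 with IL-4 in WT (median −0.11) and 8 in the knockout (−0.05), beside 52.3% and 52.9% of all genes. In WT 1 was 2-fold higher and 3 were 2-fold lower, beside 4.66% and 6.18% of all genes. In the knockout 1 was 2-fold higher and 4 were 2-fold lower, beside 4.99% and 5.67%. The kinase gene Plk2 differed by 1.31 and 1.20, while the stress-response genes Sesn1 and Sesn2 differed by −1.42 and −0.97 in WT and by −1.46 and −1.13 in the knockout. Between genotypes the median of the list was −0.02 at 0 h and 0.02 at 24 h. At 24 h the genes named by the rule were Ccng1 (−0.29), Ei24 (−0.25) and Plk2 (−0.22). Timeless, a replication fork protein named after its values were seen, had 1.01 FPKM at 0 h and 2.18 at 24 h in WT, and 2.55 and 2.38 in the knockout, so WT at 0 h stood apart.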
